A study of Schizosaccharomyces pombe with 10 samples.

Results

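The noncoding RNAs that fission yeast (Schizosaccharomyces pombe) expressed in minimal medium and under hydrogen peroxide were followed across 10 libraries of polyA-enriched RNA. They were taken as the genes whose identifier starts with SPNCRNA and whose mean level over the 10 libraries reached 10 CPM, a gene's count scaled to its library's total. The rule and the threshold use these unadjusted CPM, while levels printed per library below are CPM scaled further with TMM factors. This gave 283 members out of 1540 SPNCRNA genes and 7017 genes in the count table. The members were thus chosen by their measured level over all libraries, and their abundance is described here and not tested.

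The 5 strains were the library labelled 10D, given as a sty1 deletion with an HA-tagged Atf1 that mimics phosphorylation; 10M, a sty1 deletion with an HA-tagged Atf1 that cannot be phosphorylated; HA, a sty1 deletion with HA-tagged Atf1; STY, a sty1 deletion with its own Atf1; and WT, the wild type. Each strain gave 1 culture treated with 1 mM H2O2 for 15 min and 1 untreated culture, grown in minimal medium to exponential phase, so no strain was replicated. Sty1, a MAP kinase activated by stress, phosphorylates the DNA-binding protein Atf1. The series compares what forms of Atf1 do when the kinase is missing. The labels do not name the promoter of the tagged alleles or the number of clones.

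The sty1 transcript did not follow all labels. Its level was 130 CPM in treated and 105 CPM in untreated 10D, 121 and 101 CPM in 10M, 125 and 119 CPM in HA, 9.11 and 8.92 CPM in STY, and 305 and 267 CPM in WT. The libraries labelled 10D, 10M and HA therefore held sty1 counts that go against a deletion, and they are named below only by their labels. Their atf1 levels were 744 and 524 CPM in 10D, 398 and 358 CPM in 10M, and 660 and 556 CPM in HA, against 30.4 and 69.3 CPM in STY and 643 and 143 CPM in WT. The part of these differences in the results was not tested. SPNCRNA.622 overlaps sty1 on the opposite strand. It was at 40.2 and 78.5 CPM in treated and untreated 10D, 137 and 105 CPM in 10M, 124 and 45.6 CPM in HA, 20.8 and 17.0 CPM in STY, and 21.8 and 20.5 CPM in WT. Library totals ran from 9178795 to 26503471 counts, with 10D and 10M deeper than the rest, and 3 counts, the limit that a count of 0 allows, were 0.113 to 0.327 CPM.

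Fission yeast transcribes much of its genome outside protein-coding genes, often antisense to a gene or away from a gene's own promoter in the other direction. Many of these RNAs are short-lived: the nuclear exosome, with the MTREC complex and the RNA-binding protein Mmi1, removes them, and termination factors and chromatin regulators limit their synthesis. Some act on a neighbouring gene, as transcription through the tgp1 promoter represses that phosphate-regulated gene. Atf1 binds the CRE sequence, whose core is TGACGT, at stress genes.

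Promoters of 5 members are shown because they carry that core. They come from the 55 members picked for the largest called changes or the most extreme ratios in the comparisons below. Their share of the 55 is near that of all members. The members with the largest differences, such as SPNCRNA.1280, SPNCRNA.1190 and SPNCRNA.926, do not have it in this window. Each window runs from 250 bases before to 50 bases after the annotated start, 5' to 3' on the member's own strand, from the RefSeq ASM294v3 genome and annotation; the build of the count table is not given in the sources used here, so identifiers alone were matched. Capitals mark the core, which reads ACGTCA in these windows because it lies on the other strand. The windows are on chromosome I, plus strand, for SPNCRNA.887; on chromosome II, minus strand, for SPNCRNA.1435, SPNCRNA.1344 and SPNCRNA.1533; and on chromosome III, minus strand, for SPNCRNA.1159.
SPNCRNA.887: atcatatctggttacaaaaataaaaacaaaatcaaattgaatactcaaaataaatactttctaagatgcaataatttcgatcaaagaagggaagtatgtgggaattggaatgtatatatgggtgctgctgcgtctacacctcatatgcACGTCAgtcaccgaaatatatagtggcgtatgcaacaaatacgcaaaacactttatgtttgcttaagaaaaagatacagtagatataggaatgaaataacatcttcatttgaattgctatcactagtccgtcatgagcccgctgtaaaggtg
SPNCRNA.1435: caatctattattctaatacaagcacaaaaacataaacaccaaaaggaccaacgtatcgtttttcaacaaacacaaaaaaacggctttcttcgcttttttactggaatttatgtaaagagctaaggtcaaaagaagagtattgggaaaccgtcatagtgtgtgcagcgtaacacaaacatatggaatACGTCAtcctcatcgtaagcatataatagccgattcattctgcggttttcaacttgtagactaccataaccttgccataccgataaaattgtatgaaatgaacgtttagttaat
SPNCRNA.1159: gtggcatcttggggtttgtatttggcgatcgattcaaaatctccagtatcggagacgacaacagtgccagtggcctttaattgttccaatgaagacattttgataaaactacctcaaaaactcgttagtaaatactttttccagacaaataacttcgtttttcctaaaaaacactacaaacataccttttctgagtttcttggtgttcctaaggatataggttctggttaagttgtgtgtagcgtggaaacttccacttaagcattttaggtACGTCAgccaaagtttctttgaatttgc
SPNCRNA.1344: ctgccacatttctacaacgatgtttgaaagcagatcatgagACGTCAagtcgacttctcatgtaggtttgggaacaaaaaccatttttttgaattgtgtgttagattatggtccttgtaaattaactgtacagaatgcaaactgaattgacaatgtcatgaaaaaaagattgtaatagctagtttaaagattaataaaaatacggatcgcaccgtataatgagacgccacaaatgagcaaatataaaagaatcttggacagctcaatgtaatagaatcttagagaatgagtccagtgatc
SPNCRNA.1533: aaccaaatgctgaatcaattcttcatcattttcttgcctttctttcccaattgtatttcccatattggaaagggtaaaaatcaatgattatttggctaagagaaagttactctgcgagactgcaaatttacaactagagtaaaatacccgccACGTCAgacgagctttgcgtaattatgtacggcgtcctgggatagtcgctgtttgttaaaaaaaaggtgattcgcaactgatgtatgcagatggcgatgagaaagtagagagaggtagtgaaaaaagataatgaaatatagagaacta

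TGACGT, on either strand, was in 22 of the 278 member windows that could be read, or 7.91%. The share was 7.56% of 1151 windows of SPNCRNA genes under the threshold and 5.92% of 5103 windows of protein-coding genes. Among the members at least 2-fold higher after H2O2 in both 10D and WT it was 6 of 52, or 11.5%, and among those higher in both 10M and HA 6 of 56, or 10.7%. The Pap1 site TTACGTAA, which is bound by the other oxidative stress factor of this yeast, was in 1 member window. The heat shock element core GAANNTTC was in 12.9% of member windows and 11.1% of protein-coding windows. It was in 11 of 56 windows, or 19.6%, of members at least 2-fold higher in both 10M and HA. A match is a description of these letters, not a bound site.

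Most members lay against a coding gene. Of the 278 that matched the RefSeq annotation, 184 (66.19%) overlapped a protein-coding gene on the opposite strand, 27 overlapped genes on both strands, 11 overlapped one on the same strand and 56 overlapped none. The strand setting of the counting is not given in the sources used here, so reads from a member and from a gene that overlaps it cannot be told apart. There were 119 members on chromosome I, 104 on II and 55 on III. Their annotated spans ran from 232 to 5317 bases with a median of 1848. SPNCRNA.01, SPNCRNA.1531, SPNCRNA.504, SPNCRNA.59 and SPNCRNA.893 were not matched.

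Levels were mostly modest. The median of the members' mean levels was 17.9 CPM, 164 lay under 20 CPM and 7 reached 100 CPM. In every library 105 members were at 10 CPM or more, whereas 62 were at that level in 5 or fewer libraries. Between their lowest and highest library 57 members spanned more than 10-fold and 26 less than 2-fold. All members had a count in every library except SPNCRNA.130 (omt3), which had none in untreated STY. Just inside the threshold were SPNCRNA.977 at 10.01, SPNCRNA.1417 at 10.02 and SPNCRNA.606 at 10.03 CPM. Just outside were SPNCRNA.1615 at 9.951, SPNCRNA.713 at 9.92 and SPNCRNA.1579 at 9.89 CPM.

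Together the members took 0.872% of counts in treated and 0.673% in untreated 10D, 0.983% and 0.659% in 10M, 1.11% and 0.693% in HA, 0.805% and 0.705% in STY, and 0.959% and 0.740% in WT. The share was higher in the treated library of each of the 5 strains. This is a share of counts, and more RNA from the members cannot be told apart from less RNA from other genes.

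The highest mean level belonged to SPNCRNA.504, with 332, 864, 1258, 757 and 190 CPM in treated 10D, 10M, HA, STY and WT, against 897, 583, 1132, 530 and 914 CPM in the untreated libraries of those strains. It was lower after H2O2 in 10D and WT and not in the other 3 strains. Per kilobase of annotated span, SPNCRNA.1094 stood at 565, SPNCRNA.863 at 267 and SPNCRNA.1095 at 266 CPM per kb on average, against 84.0 for SPNCRNA.111 (rse1) and 80.3 for SPNCRNA.953. SPNCRNA.1094 and SPNCRNA.1095 are neighbours that share a nearest coding gene. SPNCRNA.1094 had 73.0, 94.1, 492, 396 and 19.9 CPM in treated 10D, 10M, HA, STY and WT, against 112, 68.8, 47.3, 43.8 and 26.0 CPM untreated. SPNCRNA.1095 had 52.9, 84.2, 569, 421 and 25.6 CPM treated, against 79.0, 53.4, 53.5, 70.2 and 42.1 CPM untreated. Both were far higher in treated HA and STY than in any other library.

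What did H2O2 change in common in all 5 strains? In a fit of strain and treatment by edgeR's quasi-likelihood test, 27 members rose and 1 fell, with Benjamini-Hochberg adjusted p under 0.05 over 6097 genes. Over all genes tested 2.07% rose and 2.84% fell, or 4.9% in either direction. All 283 members passed the filter on low counts. Their median log2 change was 0.466, against -0.0319 for all genes tested. At an unadjusted p under 0.05, 110 members were higher and 15 lower, where 1821 of all 6097 genes passed in either direction. Of 771 SPNCRNA genes under the threshold, 55 rose and 1 fell. Of the 27 members that rose, 14 had a mean under 10 CPM outside the treated libraries, so they met the rule only through the libraries where they were high. The count over the members is therefore a description, and such members are named below without a p.

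SPNCRNA.609 gave the largest shared change. It overlaps hsp3104 on the same strand, and its level was 194, 88.2, 79.9, 23.7 and 316 CPM in treated 10D, 10M, HA, STY and WT, against 28.2, 15.2, 11.2, 11.8 and 16.0 CPM untreated. Treated and untreated levels overlapped only through treated STY, and the log2 change was 2.71 ± 0.44 (SE, adjusted p = 0.0350 by edgeR). SPNCRNA.863, which overlaps no coding gene, had 740, 476, 618, 251 and 1616 CPM treated, against 54.0, 122, 145, 178 and 225 CPM untreated. Every treated library stood above every untreated one, with a log2 change of 2.24 ± 0.46 (edgeR adjusted p = 0.0472).

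SPNCRNA.1202 lies opposite met10, a sulfite reductase gene, and had 37.0, 47.4, 55.5, 35.9 and 22.4 CPM treated, against 12.3, 11, 4.36, 10.5 and 5.36 CPM untreated. Its levels did not overlap between treatments, and the log2 change was 2.21 ± 0.31 (SE). SPNCRNA.472 lies between bfr1, a drug transporter gene, and wee1, the mitotic inhibitor kinase gene. It had 6.66, 17.7, 69.4, 46.9 and 12.9 CPM treated, against 1.33, 8.51, 11.6, 19.7 and 1.03 CPM untreated. It was higher in each treated library than in its own untreated one although the strains' levels overlapped, with a log2 change of 2.07 ± 0.39. Both met the rule only through the treated libraries.

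Other members that rose were SPNCRNA.617 (opposite rad8, a DNA repair ubiquitin ligase gene) by 1.94 ± 0.38, SPNCRNA.1296 by 1.72 ± 0.28, SPNCRNA.1511 (opposite the aminopeptidase gene ape2) by 1.58 ± 0.30, SPNCRNA.1360 by 1.53 ± 0.23, SPNCRNA.615 by 1.5 ± 0.25 and SPNCRNA.1533 by 1.46 ± 0.24 on the log2 scale (SE). All 6 met the rule only through the treated libraries. SPNCRNA.1533, whose promoter is shown above, had 15.9, 15.2, 31.8, 26.3 and 29.9 CPM treated, against 4.35, 6.55, 11.7, 16.6 and 6.68 CPM untreated. The member that fell was SPNCRNA.716, with 8.55, 13.3, 15.7, 15.9 and 12.2 CPM treated, against 13.8, 22.6, 35.4, 22.7 and 28.0 CPM untreated. Its log2 change was -0.87 ± 0.16 (edgeR adjusted p = 0.0409).

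These calls needed all 5 strains. Without 10D, 10M, HA, STY or WT in turn, 0 of the 28 members passed, while all 28 kept the sign of their change in each of these fits. With the DESeq2 Wald test 105 members rose and 5 fell, and over all genes 653 of the 1140 called rose. With scaling by total counts 25 members rose and 5 fell, when the share that rose among all genes called was 21.6% and not 42.1%.

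**Figure D1:**
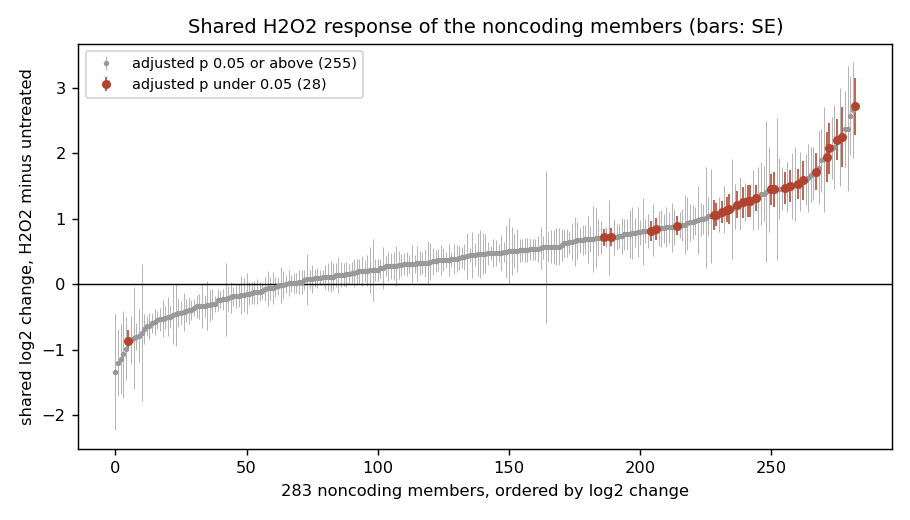
Shared log2 change after H2O2 (y axis) of the 283 noncoding members in order of size (x axis), with SE bars; red points are the 28 with adjusted p under 0.05. The points lie mostly above 0, with a median of 0.466, and SPNCRNA.609 at 2.71 is the rightmost.

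Within a strain there was 1 library per treatment, so ratios describe pairs of libraries and carry no test. A member counted as apart when its scaled level differed at least 2-fold and the exact binomial 95% interval of the ratio, which covers counting error only, excluded 1. In 10D, 76 members were higher and 26 lower, where the background over 4985 genes at 10 CPM or more was 7.38% higher and 7.24% lower. In 10M, 74 were higher and 0 lower (background 2.97% and 3.31%, 6.28% either way). In HA, 86 were higher and 1 lower (background 4.05% and 7.56%). In STY, 30 were higher and 3 lower (background 1.14% and 6.74%, 7.88% either way). In WT, 73 were higher and 27 lower (background 9.43% and 6.48%). As shares of the 283 members, those higher were 26.9% in 10D, 26.1% in 10M, 30.4% in HA, 10.6% in STY and 25.8% in WT. Scaling by total counts moved the share of higher among those apart from 73% to 61.5% in WT and from 90.9% to 79.3% in STY.

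**Figure D2:**
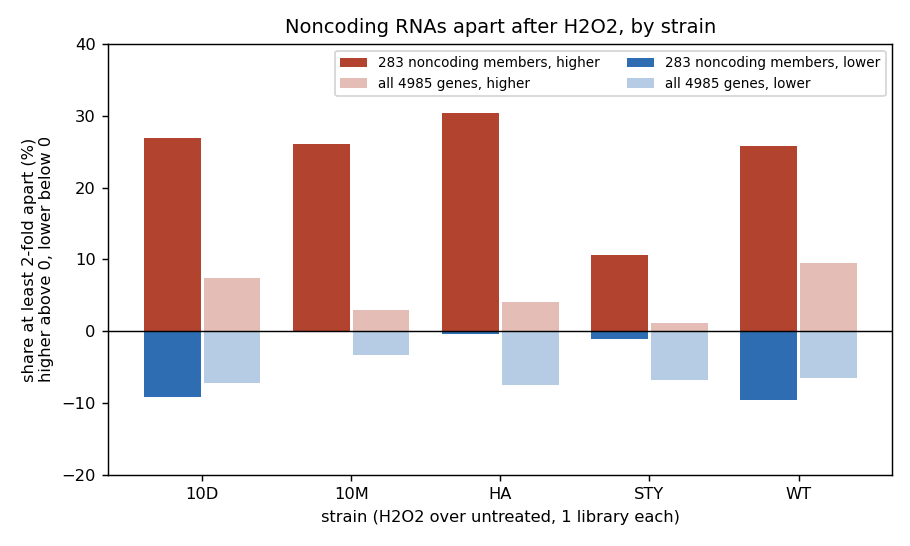
Share of genes at least 2-fold apart between the H2O2-treated and untreated library of each strain (y axis, percent; higher above 0, lower below 0), for the 283 noncoding members (dark bars) and all 4985 genes at 10 CPM or more (pale bars). The dark bar above 0 is the taller in each strain, from 10.6% in STY to 30.4% in HA, and members lower after H2O2 are mostly in 10D and WT.

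The same members were not apart everywhere. SPNCRNA.1202, SPNCRNA.472 and SPNCRNA.609 were at least 2-fold higher in all 5 strains. A ratio above 0 in all 5 was found for 93 members (32.9%, against 10.9% of the 4985 genes), and 106 were apart in no strain (37.5%, against 70.1%). The members higher in both 10D and WT numbered 52 (18.4%, against 4.85% of the 4985 genes), and those higher in both 10M and HA 58 (20.5%, against 2.23%). Lower in both 10D and WT were 17 members (6.01%, against 3.57%), of which SPNCRNA.1353, SPNCRNA.1653 and SPNCRNA.846 were also higher in 10M and HA. No member was lower in 3 or more strains.

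To test differences between strains, STY, HA and 10M were taken as 1 pool per treatment, and WT and 10D, with 1 library each, were assumed to vary as the pooled strains do. The pool was formed with earlier results of these data known. Within the pool 57 members rose and 2 fell after H2O2 (edgeR, 6176 genes), against 5.18% and 10.3% of all genes. Of the 57, 23 met the rule only through the treated pool. Leaving HA out of the pool left 0 calls, leaving STY out 23 and leaving 10M out 28, while DESeq2 gave 97. With each strain as a block, which pairs its treated and untreated library, there were 106. In treated 10D against the treated pool, 48 members were higher and 56 lower, where 18.6% and 12.4% of all genes were, 31% in all. In treated WT against the treated pool, 45 members were higher and 54 lower, where 21.5% and 16.4% of all genes were. These counts fell to 35 for 10D and 40 for WT without HA. In treated 10D, 2 of the 48 higher and 23 of the 56 lower members met the rule only through the group where they were higher. In treated WT, 6 of the 45 higher and 21 of the 54 lower members did. In the untreated state 15 members differed between 10D and the pool, 8 higher and 7 lower, where 2.32% and 0.356% of all genes did, 2.67% in all. Of these members, 2 of the 8 and 2 of the 7 met the rule only through the group where they were higher. Without STY, HA or 10M 7, 2 or 35 members differed, and DESeq2 gave 19 higher and 38 lower. Between untreated WT and the pool 0 members differed by edgeR, where 0.0648% of all genes did, 0.0486% higher and 0.0162% lower. At an unadjusted p under 0.05, 28 members and 431 of all 6176 genes did. DESeq2 called 8 members, among 66 genes in all.

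In the edgeR fit without a strain block, the response to H2O2 in 10D or WT differed from that of the pool for a share of members near that of all genes. The 10D response differed from the pool response for 16 members (5.65%), 9 above and 7 below it, where 2.95% and 1.93% of all genes were, 4.87% in all. The WT response did so for 16 (5.65%), 7 above and 9 below, where 3.47% and 1.98% of all genes were, 5.44% in all. Both counts were 0 without HA and 0 without STY, and with scaling by total counts the WT response stood above the pool for 3 and below it for 6. With a strain block the 10D response stood above it for 24 and below it for 28, and the WT response for 22 and 27. DESeq2 gave 21 and 28 for 10D, and 13 and 29 for WT. Over all genes the strain block called 853 for the 10D response, 470 of them above the pool's. DESeq2 called 744 genes in all for the 10D response and 807 for the WT response. The count over all genes with a strain block is not given here for WT. Some members called by edgeR met the rule only through the group where they were higher. These were 1 above and 4 below for 10D, and 1 above and 3 below for WT.

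SPNCRNA.1591 starts away from pxp2 and overlaps nto1 on the opposite strand. It had 85.6, 30.9, 11.2, 10.2 and 9.79 CPM in treated 10D, WT, 10M, HA and STY, against 10.2, 6.31, 5.73, 7.76 and 8.82 CPM untreated. Treated 10D and WT stood above all other libraries, and SPNCRNA.1591 met the rule only through them. Its 10D response exceeded the pool response by 2.57 ± 0.41 on the log2 scale (SE). SPNCRNA.1159 starts away from tal1, the transaldolase gene of the pentose phosphate pathway. It had 67.3, 29.3, 9.62, 10.3 and 7.42 CPM treated, against 5.62, 4.14, 4.09, 5.0 and 4.51 CPM untreated, and its 10D response was 2.56 ± 0.41 above that of the pool. It met the rule only through treated 10D. Here too the treated 10D and WT libraries were the highest.

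SPNCRNA.1287, which overlaps no coding gene and follows the retrotransposon Tf2-13, had 70.9, 85.8, 14.5, 18.0 and 10.9 CPM treated, against 3.32, 7.81, 4.86, 5.85 and 6.30 CPM untreated. Treated levels were above untreated ones in each strain, and the response exceeded that of the pool by 3.04 ± 0.47 in 10D and by 2.09 ± 0.45 in WT. SPNCRNA.1287 met the rule only through treated 10D and WT together. SPNCRNA.1611, opposite the histone H4 gene hhf3, had 23.6, 66.3, 6.34, 6.94 and 4.50 CPM treated, against 19.8, 1.22, 2.18, 1.28 and 2.73 CPM untreated. It was the member with the highest ratio in WT, with a log2 ratio of 5.60 (interval 4.98 to 6.68), and in 10D it was already high before treatment. Its WT response was 4.23 ± 0.66 above the pool's, and it met the rule only through treated WT.

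SPNCRNA.783, opposite hsr1, had 88.9, 63.5, 15.5, 14.8 and 8.10 CPM treated, against 12.6, 6.68, 7.58, 8.29 and 7.66 CPM untreated. SPNCRNA.1435 starts away from git5, the G protein beta subunit gene of the glucose-sensing pathway, and overlaps mug93 on the opposite strand. It had 79.5, 109, 19.4, 11.4 and 4.16 CPM treated, against 37.9, 16.9, 10.6, 8.72 and 6.93 CPM untreated. SPNCRNA.1344 precedes tgp1 on the same strand and overlaps SPBC1271.08c on the opposite strand. It had 57.0, 89.5, 12.5, 23.3 and 21.3 CPM treated, against 27.6, 16.1, 16.6, 17.4 and 16.1 CPM untreated. In these 3 members the treated 10D and WT libraries again stood above the other 8. The WT response exceeded the pool response by 2.53 ± 0.53 for SPNCRNA.783 and 2.29 ± 0.48 for SPNCRNA.1344 (edgeR adjusted p = 0.0435 and 0.0453). Treated WT was above the treated pool by 3.20 ± 0.60 for SPNCRNA.1435 (adjusted p = 0.0074).

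SPNCRNA.1258 overlaps tpx1, the peroxiredoxin gene, on the same strand, so reads of the pair cannot be told apart. It had 69.3, 76.2, 31.6, 13.9 and 13.6 CPM treated, against 2.78, 3.67, 5.35, 5.42 and 10.9 CPM untreated. The log2 ratio was 4.57 in 10D (interval 4.22 to 5.10) and 4.32 in WT (3.91 to 4.88). The ratios of tpx1 itself were 3.53 in 10D, 3.37 in WT, 0.75 in 10M, 0.47 in HA and 0.47 in STY. SPNCRNA.1179, opposite atd3, had the highest ratio in 10D at 4.94 (interval 4.48 to 5.80). Its levels were 43.4, 40.2, 17.0, 32.6 and 36.8 CPM treated, against 1.27, 5.55, 7.31, 12.8 and 22.0 CPM untreated, so the treated levels were near one another and the untreated ones were not.

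Other members did the reverse, with high levels in treated 10M, HA and STY. SPNCRNA.1653 overlaps fes1, a nucleotide exchange factor gene for Hsp70 chaperones, on the same strand. It had 5.70, 4.06, 183, 198 and 67.2 CPM in treated 10D, WT, 10M, HA and STY, against 13.1, 17.1, 25.7, 13.2 and 12.1 CPM untreated. The treated levels of the pooled strains were above all untreated ones and those of 10D and WT below them. The pool rose by 3.12 ± 0.48 (adjusted p = 0.0130), and the WT response minus that of the pool was -5.20 ± 1.06 (adjusted p = 0.0425). SPNCRNA.1353 had 3.69, 1.92, 52.2, 73.6 and 29.1 CPM treated, against 25.3, 13.0, 14.5, 10.1 and 6.09 CPM untreated. Its difference from the pool response was -5.10 ± 0.90 in 10D (adjusted p = 0.0287) and -5.08 ± 0.96 in WT (adjusted p = 0.0345).

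SPNCRNA.1673 had the highest ratios of all members in 10M and STY. Its levels were 1.32, 2.35, 28.3, 107 and 39.1 CPM treated, against 1.33, 4.71, 2.62, 5.96 and 2.52 CPM untreated, with a log2 change of 4.0 ± 0.63 in the pool. SPNCRNA.1688 had 3.05, 3.95, 23.1, 49.2 and 23.4 CPM treated, against 2.24, 4.14, 2.73, 2.13 and 2.83 CPM untreated, a log2 change of 3.63 ± 0.39 in the pool. In both members 10D and WT stayed at a few CPM with and without H2O2. SPNCRNA.846, opposite the cyclin gene cig2, had 5.66, 4.16, 24.8, 35.3 and 11.1 CPM treated, against 14.5, 8.94, 3.44, 1.17 and 2.31 CPM untreated, and its change in the pool was 3.33 ± 0.54. These 3 members met the rule only through the treated pool, so their changes there carry no test.

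SPNCRNA.926 starts away from zpr1, the gene of a zinc finger protein that assists the folding of elongation factor 1A. The member overlaps mug182 on the opposite strand. It had 0.682, 2.56, 24.0, 56.3 and 27.7 CPM treated, against 2.42, 4.71, 6.38, 7.02 and 7.77 CPM untreated, and its 10D response minus that of the pool was -4.17 ± 0.81. SPNCRNA.774 starts away from pss1, the gene of an Hsp110 chaperone. It had 2.09, 2.78, 36.6, 74.7 and 39.3 CPM treated, against 3.93, 3.01, 6.77, 9.04 and 9.66 CPM untreated, with a 10D response minus pool response of -3.48 ± 0.70. For both, the 3 treated libraries of the pool were the highest of the 10, and both met the rule only through them.

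**Figure D3:**
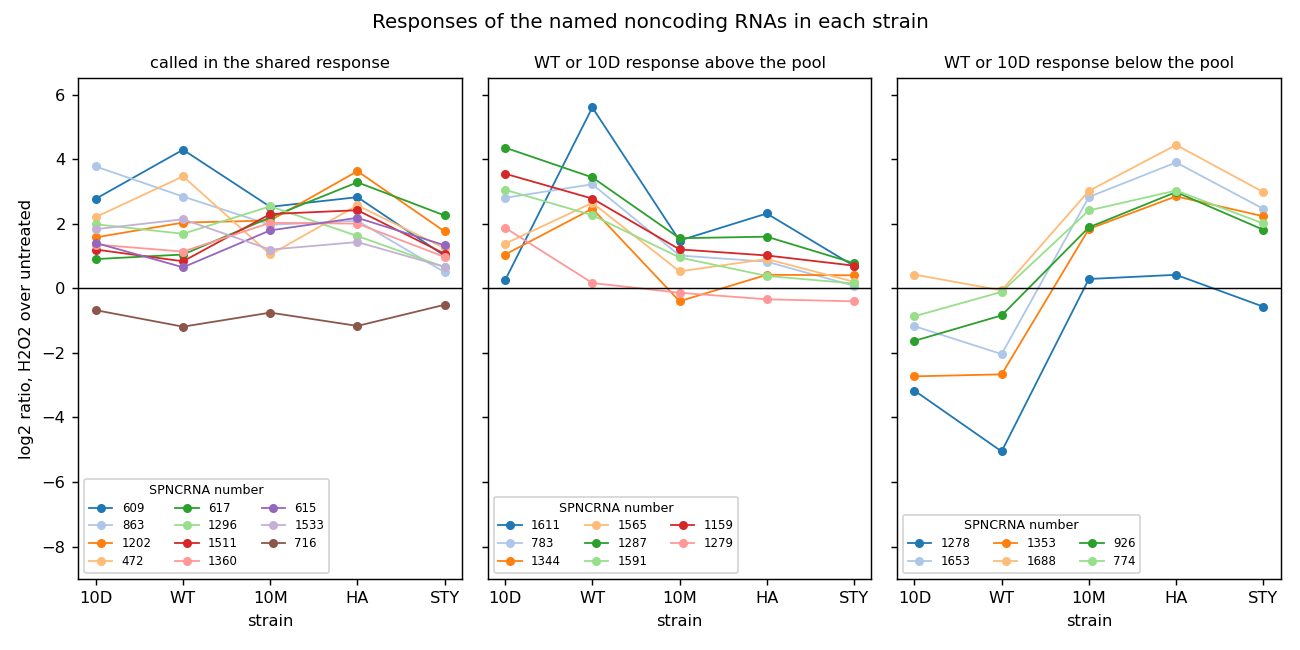
Log2 ratio of H2O2-treated over untreated level (y axis) in each strain (x axis, 1 library pair per point) for named members. On the left are those named for the largest changes among the members called in the shared response, not all that were called. The others are those named whose 10D or WT response was above (middle) or below (right) that of the pool of 10M, HA and STY. Lines join the points of 1 member; on the right SPNCRNA.1353 is at -2.73 in 10D and -2.67 in WT against 2.85 in HA.

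Another set was lower after H2O2 in 10D and WT. SPNCRNA.1696 (nam3) overlaps no coding gene. It had 5.02, 1.71, 34.9, 129 and 38.9 CPM in treated 10D, WT, 10M, HA and STY, against 42.8, 34.4, 19.0, 30.5 and 47.2 CPM untreated. Treated WT was below the treated pool, with a log2 difference of -5.30 ± 1.21 (SE, edgeR adjusted p = 0.0152). SPNCRNA.1278 had 2.57, 0.961, 27.1, 40.6 and 33.2 CPM treated, against 24.3, 36.7, 22.2, 30.4 and 49.3 CPM untreated. The difference from the pool response was -3.23 ± 0.66 in 10D (adjusted p = 0.0445) and -5.23 ± 0.78 in WT (adjusted p = 0.0221). The 8 libraries other than treated 10D and WT were all above 20 CPM.

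SPNCRNA.1190 had 0.281, 0.641, 5.96, 20.7 and 30.6 CPM treated, against 4.83, 4.61, 8.35, 18.3 and 27.7 CPM untreated. Treated 10D was below the treated pool, with a log2 difference of -6.04 ± 1.40, and it met the rule only through the treated pool. SPNCRNA.29 (meu19, named for a meiotic transcript) had 8.63, 4.27, 5.86, 3.82 and 5.51 CPM treated, against 29.5, 27.5, 3.87, 5.53 and 7.66 CPM untreated. It was high in the untreated 10D and WT libraries, and untreated 10D exceeded the untreated pool by 2.38 ± 0.39, a member that met the rule only through untreated 10D. SPNCRNA.130 (omt3), whose neighbour is mei2, the RNA-binding switch gene of meiosis, had 44.2, 3.74, 120, 5.23 and 0.675 CPM treated, against 119, 45.4, 62.4 and 6.70 CPM untreated in 10D, WT, 10M and HA and no count in untreated STY. The pooled strains were far apart for this member, and none of its contrasts passed the test.

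**Figure D4:**
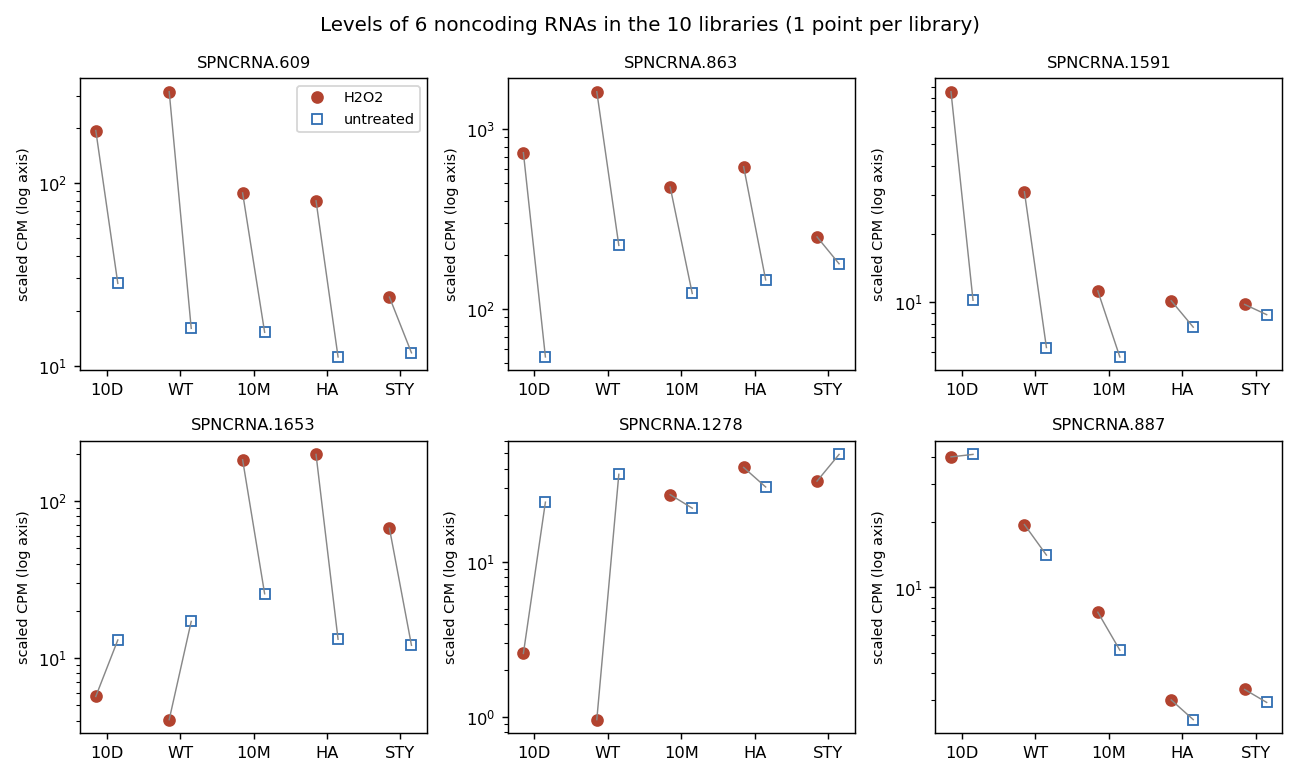
Scaled CPM (y axis, log) of 6 members in H2O2-treated (filled circles) and untreated (open squares) libraries of each strain (x axis), 1 point per library and a line per strain. SPNCRNA.609 and SPNCRNA.863 are higher after H2O2 in each strain, SPNCRNA.1591 most in 10D and WT, SPNCRNA.1653 in 10M, HA and STY; SPNCRNA.1278 is lower in 10D and WT, and SPNCRNA.887 differs by strain.

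Strains also differed over both treatments. In these contrasts the treated and untreated library of a strain stand in for repeats of it, which they are not. In the fit of strain and treatment, 10D differed from HA for 22 members, 9 higher and 13 lower, where 1.97% and 1.1% of all genes did, 3.07% in all. Of the 9 higher, 2 met the rule only through 10D. Without STY or without 10M 1 member was left, without WT there were 37, and DESeq2 gave 26 higher and 62 lower. STY differed from WT for 5 members, 3 higher and 2 lower, where 0.0984% and 0.18% of all genes did, 0.279% in all. Without HA or 10M it differed for 0, with scaling by total counts 5 were higher and 2 lower, and DESeq2 gave 40 in all. HA differed from STY for 0 members by edgeR (13 at an unadjusted p under 0.05, 1 by DESeq2), where 0.0164% of all genes did. 10M differed from HA for 0 members (20 at an unadjusted p under 0.05, 4 by DESeq2) and 0% of all genes.

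SPNCRNA.887 starts away from the glutathione transferase gene gst3 and overlaps slx4 and rng10 on the opposite strand. It was at 40.2, 7.68, 3.02, 3.37 and 19.5 CPM in treated 10D, 10M, HA, STY and WT, and at 41.3, 5.13, 2.45, 2.94 and 14.1 CPM untreated. Treated and untreated levels were near each other within each strain, with 10D the highest and WT next. STY was below WT, with a log2 difference of -2.40 ± 0.28 (SE). 10D was above HA by 3.90 ± 0.29, and the rule was met only through 10D. SPNCRNA.1280 overlaps vma8 on the same strand and yme1 on the opposite strand. It had 57.0, 4.46, 3.62, 0.450 and 99.2 CPM treated and 61.3, 1.47, 0.851, 0.525 and 18.8 CPM untreated. It stood high in 10D and WT and near the limit of counting in STY. The log2 differences were 5.09 ± 0.73 between 10D and HA and -6.59 ± 0.85 between STY and WT. Its levels in 10M, HA and STY were all under 10 CPM, so it met the rule only through 10D and WT.

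SPNCRNA.607, opposite the flocculin-like gene pfl8, had 89.0, 7.41, 5.23, 5.96 and 27.6 CPM treated and 69.5, 3.76, 3.83, 5.77 and 4.61 CPM untreated. For this member 10D was above HA by 4.15 ± 0.63 and untreated 10D above the untreated pool by 3.97 ± 0.29, with the rule met only through 10D. SPNCRNA.1318 was above HA in 10D by 3.03 ± 0.35. Its mean over the libraries of 10M, HA and STY was under 10 CPM, so it met the rule only through 10D and WT. Lower in 10D than in HA were SPNCRNA.1056, SPNCRNA.900, SPNCRNA.857 and SPNCRNA.472, with log2 differences of -3.95 ± 0.68, -3.46 ± 0.62, -3.40 ± 0.61 and -3.26 ± 0.62. SPNCRNA.472 met the rule only through the treated libraries. SPNCRNA.1056 and SPNCRNA.900 met it only through the treated pool, which holds HA.

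Untreated 10D was also low for some members. SPNCRNA.798 had 16.5, 57.8, 67.8, 45.4 and 57.7 CPM in treated 10D, 10M, HA, STY and WT, and 4.05, 43.0, 45.3, 47.1 and 40.3 CPM untreated. The other 4 strains lay close together, and untreated 10D was below the untreated pool, with a difference of -3.48 ± 0.30 (adjusted p = 0.00178). The same difference was -2.56 ± 0.27 for SPNCRNA.1505 (adjusted p = 0.00543), -3.86 ± 0.65 for SPNCRNA.1488 and -4.32 ± 0.79 for SPNCRNA.448, which met the rule only through the untreated pool.

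The members higher or lower in STY than in WT included SPNCRNA.980, next to the phosphate transporter gene pho842 and opposite ayr1. It had 7.22, 18.5, 37.0, 68.2 and 9.72 CPM treated and 14.1, 21.9, 44.9, 67.0 and 11.5 CPM untreated in 10D, 10M, HA, STY and WT. STY was the highest strain and exceeded WT by 2.69 ± 0.28 (edgeR adjusted p = 0.0370). SPNCRNA.1337 was higher in STY than in WT by 2.29 ± 0.28 (adjusted p = 0.0425) and SPNCRNA.1061 by 2.22 ± 0.26 (adjusted p = 0.0397).

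Members and their coding neighbours were set side by side. For 91 members the nearest coding gene on the 5' side lay within 300 bases on the opposite strand, so that both start from the same stretch in opposite directions. Among these pairs, whose coding gene also reached 10 CPM, 24 members were at least 2-fold higher in 10D, and 9 of the 24 coding genes were too (37.5%, background 7.38%) and 1 was lower. In WT 22 members were higher, with 6 coding genes higher (27.3%, background 9.43%) and 0 lower. Of the members that were lower, 6 in 10D and 8 in WT, 4 coding genes were lower in each and 0 were higher. In HA 27 members were higher, with 2 coding genes higher (7.41%, background 4.05%). For members more than 300 bases from such a neighbour, 7 of 36 coding genes were higher (19.4%) and 5 lower (13.9%) where the member was higher in 10D, and 8 of 30 were higher (26.7%) and 2 lower (6.67%) in WT. Neighbours share libraries and depth, so these counts carry no test.

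The log2 ratios of SPNCRNA.1591 and pxp2 were 3.05 and 2.15 in 10D, 2.26 and 1.74 in WT, 0.95 and 0.69 in 10M, 0.38 and 0.70 in HA, and 0.15 and 0.39 in STY. Those of SPNCRNA.926 and zpr1 were -1.63 and -1.04 in 10D, -0.84 and -0.88 in WT, 1.89 and 1.47 in 10M, 2.98 and 2.27 in HA, and 1.81 and 1.18 in STY. The ratio was highest in 10D and lowest in STY for SPNCRNA.1591 and pxp2, and for SPNCRNA.926 and zpr1 HA was highest and 10D lowest. For SPNCRNA.1435 and git5 the ratios were 1.06 and -0.41 in 10D and 2.69 and 2.11 in WT, so that the pair moved together in WT and apart in 10D.

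**Figure D5:**
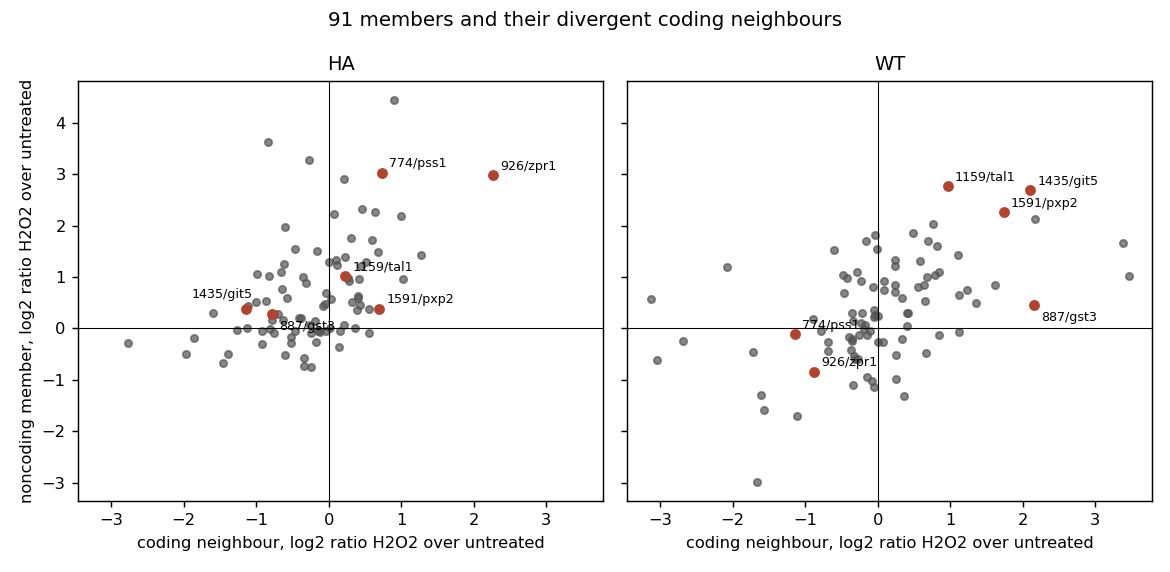
Log2 ratio of H2O2-treated over untreated level of 91 noncoding members (y axis) against that of the coding neighbour that starts within 300 bases in the other direction (x axis), in HA (left) and WT (right), 1 library pair each. Red points are named pairs; SPNCRNA.926 and zpr1 are at 2.98 and 2.27 in HA and at -0.84 and -0.88 in WT.

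Members that overlap a coding gene on the opposite strand gave a mixed picture. In 10D 59 such pairs had a member that was higher, with 8 coding genes higher and 6 lower (13.6% and 10.2%, background 7.38% and 7.24%). In WT there were 60, with 11 higher and 7 lower (18.3% and 11.7%, background 9.43% and 6.48%). Where the member was lower in WT, 5 of 15 coding genes were higher (33.3%) and 0 were lower. Where it was lower in 10D, 2 of 13 were higher (15.4%) and 0 were lower. SPNCRNA.857 had ratios of 0.32 in 10D and -1.13 in WT, while the gene opposite to it, SPACUNK4.17, had -5.27 and 4.28. SPNCRNA.1505 had 1.41 in 10D and -0.58 in WT, against -1.47 and 3.90 for SPBC24C6.09c. SPNCRNA.1374 had -1.30 in WT, where cta3, a cation-transporting ATPase gene, had 4.38. SPNCRNA.793 lies opposite obr1 and did not go against it: the ratios were 1.07 and 3.29 in 10D and 1.10 and 4.03 in WT.

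Other members carry a name. SPNCRNA.111 (rse1), whose 5' neighbour in the other direction is ste11, the mating transcription factor gene, had 417, 315, 202, 148 and 304 CPM in treated 10D, 10M, HA, STY and WT, against 438, 362, 308, 185 and 460 CPM untreated. It was lower in the treated library of each strain, by less than 2-fold, whereas ste11 fell with a shared log2 change of -2.09 ± 0.23 (edgeR adjusted p = 0.0314). SPNCRNA.1343, which starts away from tgp1 on the other strand, had 9.31, 20.6, 19.9, 15.9 and 21.0 CPM treated, against 5.62, 13.7, 7.34, 6.61 and 17.3 CPM untreated. SPNCRNA.214 (ter1, the telomerase RNA) stayed between 7.69 CPM in treated WT and 21.8 CPM in treated HA, and treated WT was below the treated pool, with a log2 difference of -1.30 ± 0.40 (adjusted p = 0.0389). SPNCRNA.1459 (nam1, which lies before the MAP kinase kinase kinase gene byr2) was higher there by 1.36 ± 0.27 (adjusted p = 0.00974). SPNCRNA.445 and SPNCRNA.659 carry the symbols of small nucleolar RNAs, snoR61 and snoZ, on annotated spans of 653 and 1901 bases. SPNCRNA.659 also overlaps psf3 on the opposite strand. Their levels were 11.3 to 41.5 and 6.55 to 25.6 CPM, in RNA enriched for polyA. Which RNA of each span was counted was not tested.

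Of 88 genes listed for the control of noncoding RNA 3 passed the test in the shared response, or 3.41%, near the 4.9% of all genes. These 3 include mei2, a target of such control and not a limiting gene. None of the 13 genes of the nuclear exosome, 11 of the RNAi machinery, 15 of cytoplasmic RNA decay or 19 of chromatin repressors passed in the shared response, and their median log2 changes were 0.05, -0.23, -0.20 and -0.13. Of 14 genes of MTREC and Mmi1 elimination 1 fell, mei2, a target of that pathway, by -3.21 ± 0.45 (edgeR adjusted p = 0.0314). Of 16 transcription termination genes 2 fell, ssu72, a phosphatase of RNA polymerase II, by -1.07 ± 0.17 (adjusted p = 0.0324) and asp1, an inositol pyrophosphate enzyme, by -0.48 ± 0.09 (adjusted p = 0.0413). Of 28 Sty1-Atf1 stress genes 2 fell, mei2 and ste11, and none of 15 Pap1-linked, 18 heat shock or 7 phosphate genes passed, with medians of 0.10, 1.67, -0.10 and -0.16. These shared medians cover unlike strains. The Sty1-Atf1 list had a median log2 ratio of -0.783 in 10D, 0.0605 in 10M, 0.242 in HA, -0.0254 in STY and 2.13 in WT. The Pap1-linked list had 3.09, 0.752, 0.257, 0.194 and 3.48 in the same order of strains, and the heat shock list -2.21, 0.695, 0.866, 0.342 and -0.879. The lists were chosen with earlier results of these data known.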

How the data were processed

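PolyA-enriched RNA of 10 cultures was sequenced, 1 library per strain and treatment. Per the submitters' processing notes, the authors checked reads with FastQC, aligned them with TopHat2 2.1.1 and counted genes with HTSeq. The authors deposited the unscaled count of each gene. The build, annotation and strand setting are not given in the sources used here, so reads of overlapping genes cannot be told apart. Of 7017 identifiers 6843 matched the RefSeq annotation of ASM294v3, which gave names, neighbours and promoter windows; no coordinates are given.

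Counts were analysed with edgeR 4.0.16 in R: TMM scaling, filterByExpr and the quasi-likelihood test, with Benjamini-Hochberg adjusted p under 0.05 over all genes tested. One fit had strain and treatment (6097 genes, 4 residual degrees of freedom). The other had 6 cell means, for WT, 10D and a pool of STY, HA and 10M under each treatment (6176 genes, 4 residual degrees of freedom). SE was taken from the change and its F value (size of the change over the root of F). In the fit of strain and treatment the p-values measure the spread of the H2O2 response between strains. For a difference between strains, the treated and untreated library of a strain thus stand in for repeats of it. In the fit of cell means the p-values measure the spread between the pooled strains. Neither measures the spread between repeat cultures. Ratios within a strain used a prior count of 2. Intervals and the limit for a count of 0 cover counting error only, since PCR copies are not independent molecules. Neighbours were the nearest protein-coding genes. The scripts were tested on simulated counts.

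A rule set which members could be named, and not all of them are described above. It took the 10 with the highest mean CPM and the 10 called with the largest shared change in each direction. It also took the 4 called with the largest change in each direction of each other contrast. Within each strain it took the 3 highest and 3 lowest ratios. Members with a symbol, those beside stress, Pap1, heat shock or phosphate genes, and the 3 on each side of the threshold completed it. Among those not described are SPNCRNA.1369 and SPNCRNA.1118, which fell in the pool, and SPNCRNA.1324, opposite fbp1. SPNCRNA.622 and the other neighbour pairs outside this rule were picked after their values were seen. Alternatives were other scalings, no filter, DESeq2 1.42.0, other blocks and leaving out each strain. The members, lists, pool and tests were chosen with earlier results of these data known.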

Additional observations from a re-analysis of the deposited data

Results flagged for a closer look

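The groups hold 1 library each, so no sample could be compared with others of its group. What follows are the differences between the response to H2O2 in 10D or WT and that in the pool of 10M, HA and STY, each tested as a difference of log2 responses by edgeR's quasi-likelihood test with Benjamini-Hochberg adjustment (value ± SE). For 10D minus the pool they were 3.04 ± 0.47 for SPNCRNA.1287, 2.57 ± 0.41 for SPNCRNA.1591, 2.56 ± 0.41 for SPNCRNA.1159 and 2.17 ± 0.31 for SPNCRNA.1279 (adjusted p = 0.0186). Below the pool in 10D were SPNCRNA.1353 at -5.10 ± 0.90 (0.0287), SPNCRNA.926 at -4.17 ± 0.81, SPNCRNA.774 at -3.48 ± 0.70 and SPNCRNA.1278 at -3.23 ± 0.66 (0.0445). For WT minus the pool they were 4.23 ± 0.66 for SPNCRNA.1611, 2.53 ± 0.53 for SPNCRNA.783 (adjusted p = 0.0435), 2.29 ± 0.48 for SPNCRNA.1344 (0.0453) and 2.12 ± 0.45 for SPNCRNA.1565 (0.0457). Below the pool in WT were SPNCRNA.1278 at -5.23 ± 0.78 (0.0221), SPNCRNA.1653 at -5.20 ± 1.06 (0.0425), SPNCRNA.1353 at -5.08 ± 0.96 (0.0345) and SPNCRNA.1688 at -3.70 ± 0.76. SPNCRNA.1278 and SPNCRNA.1353 are in both sets, which share the pool's libraries. SPNCRNA.1159, SPNCRNA.926, SPNCRNA.774, SPNCRNA.1611 and SPNCRNA.1688 reached 10 CPM only through the libraries where they were high, so no p is given for them. The same holds for SPNCRNA.1287 and SPNCRNA.1591, which reached it only through treated 10D and WT together. Each contrast called 5.65% of the members, against 4.87% of all genes for 10D and 5.44% for WT.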

How the results depend on the processing

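No member called in any contrast changed sign under any alternative run. With DESeq2 the members called numbered 110 in the shared response, 40 for STY minus WT, 1 for HA minus STY, 88 for 10D minus HA, 4 for 10M minus HA, 97 in the pool, 8 and 57 for untreated WT and 10D against the pool, and 42 and 49 for the WT and 10D responses against that of the pool. Over all genes DESeq2 called 1140 in the shared response, 808 for 10D minus HA and 1366 in the pool. It called 66 and 402 genes for untreated WT and 10D against the pool, and 807 and 744 for the WT and 10D responses. With a strain block 106 were called in the pool, 49 for the WT response against the pool's and 52 for that of 10D, and with scaling by total counts the WT response gave 9. Over all genes there were 853 for the 10D response with a strain block and 196 for the WT response with total counts. Among members at 20 CPM or more, 45 were apart in 10D, 25 in 10M, 34 in HA, 15 in STY and 46 in WT. Leaving out 1 strain gave 0 to 0 calls in the shared response, 0 to 6 for STY minus WT, 1 to 37 for 10D minus HA, 0 to 59 in the pool, 40 to 112 and 35 to 118 for treated WT and 10D against the pool, 0 to 1 and 2 to 35 untreated, and 0 to 20 and 0 to 24 for the WT and 10D responses against the pool's. The cause was not tested. Fewer strains leave fewer residual degrees of freedom. Scaling by total counts moved the median of all genes in the shared response by -0.143 (log2). The labels give no replicate numbers; treated and untreated cultures pair only by strain, as in the fits with a strain block.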
